A study of Mus musculus with 10 samples.

Results

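The 10 genes described here belong to the circadian clock: Arntl, Npas2, Nfil3, Cry1, Per1, Per2, Per3, Nr1d2, Dbp and Ciart. They were taken by name as core clock genes and direct clock outputs, with earlier results of these data known. Every probe set annotated to one of these symbols was read, 21 in all. The gene's main value was that of its probe set with the highest mean, and the 10 genes stood among 18193 named genes on the array. Of the 10, 8 reached the level at which genes were tested, a mean of at least 5.53 on the log2 scale, as did 11486 genes in all. Npas2 and Cry1 lay below it and are given as values only. The study measured renal cortex RNA in 10 mice of the FVB/N strain, 20 weeks old, 1 array per mouse. In 5 mice the drug was aliskiren, labelled 50 mg/kg, an inhibitor of renin, and in 5 it was losartan, labelled 500 mg/l, a blocker of the angiotensin II type 1 receptor. All mice, in both groups, had a 2/3 kidney ablation, with the uninephrectomy 2 weeks afterwards, and the drug was given for 6 weeks from week 6 after the ablation. No mouse without a drug or with an intact kidney was analysed here, and the labels give neither the route of dosing nor the time of day at which tissue was taken.

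The mammalian clock is a feedback loop of transcription that runs in nearly every cell, the tubule cells of the kidney included. ARNTL (also called BMAL1) pairs with CLOCK or NPAS2 and binds E-box sequences to switch on the Per and Cry genes, Nr1d1 and Nr1d2, Dbp and Ciart. PER and CRY proteins then hold this pair back. NR1D1 and NR1D2 (REV-ERB alpha and beta) repress, and ROR proteins activate, genes with an RRE sequence, Arntl, Npas2, Nfil3 and Cry1 among them. DBP activates and NFIL3 represses genes with a D-box, such as Per3. In mouse tissues Arntl and Npas2 therefore run nearly opposite to Dbp, Per3 and Nr1d2 over the day, with Per2 and Cry1 reaching their highest levels later than Dbp. In the kidney the clock is known for its part in the daily rhythm of sodium and water excretion.

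The sequences of 4 promoters are shown because they hold letters of the E-box, D-box or RRE, the sequences named above. Whether a protein binds these matches was not tested. They are from RefSeq on build GRCm38.p6, 250 bases before to 50 bases after the annotated start, written 5′ to 3′ on the gene's strand, with the matching letters in capitals. Arntl is shown by the downstream one of its promoters in the table, chr7:113207261-113207560 on the plus strand, with the RRE letters TAGGTTA and TAGGTCA. Cry1, chr10:85185005-85185304 on the minus strand, has the E-box CACGTG and the related E-prime box CACGTT, which reads AACGTG here because it lies on the other strand. Ciart, chr3:95882179-95882478 on the minus strand, has CACGTG 3 times. Per3, chr4:151044616-151044915 on the minus strand, has the D-box TTANGTAA in the form TTATGTAA 2 times.
Arntl: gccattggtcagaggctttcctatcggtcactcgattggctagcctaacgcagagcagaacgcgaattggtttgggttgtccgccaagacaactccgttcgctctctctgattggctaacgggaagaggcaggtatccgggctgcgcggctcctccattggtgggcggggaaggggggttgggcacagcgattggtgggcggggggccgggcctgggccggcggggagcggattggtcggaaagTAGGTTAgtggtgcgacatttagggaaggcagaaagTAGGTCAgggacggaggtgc
Cry1: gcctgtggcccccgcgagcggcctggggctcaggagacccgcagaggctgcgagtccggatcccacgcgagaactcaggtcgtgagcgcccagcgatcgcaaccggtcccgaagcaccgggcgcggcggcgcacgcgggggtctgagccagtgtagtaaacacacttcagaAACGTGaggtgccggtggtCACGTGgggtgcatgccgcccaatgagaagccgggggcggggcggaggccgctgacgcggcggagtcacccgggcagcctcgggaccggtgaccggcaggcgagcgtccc
Ciart: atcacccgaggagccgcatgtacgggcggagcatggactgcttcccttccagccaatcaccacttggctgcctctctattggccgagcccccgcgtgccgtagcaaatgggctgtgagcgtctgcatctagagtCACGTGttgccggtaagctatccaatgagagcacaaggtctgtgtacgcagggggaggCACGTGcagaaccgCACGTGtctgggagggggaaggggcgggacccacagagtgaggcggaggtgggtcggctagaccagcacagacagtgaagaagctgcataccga
Per3: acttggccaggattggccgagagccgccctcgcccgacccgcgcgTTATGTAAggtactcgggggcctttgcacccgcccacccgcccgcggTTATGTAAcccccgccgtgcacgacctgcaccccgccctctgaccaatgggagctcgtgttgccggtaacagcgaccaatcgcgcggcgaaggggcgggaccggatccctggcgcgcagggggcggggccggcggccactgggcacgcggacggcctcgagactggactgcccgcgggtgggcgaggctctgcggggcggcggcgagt

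The first base of the Arntl matches lay at -6 and 31 from the start site. Those of Ciart lay at -116, -58 and -44, and those of Per3 at -205 and -158. Of the 10 genes, 9 had a promoter in the table, 11 promoters in all, and 6 genes had at least 1 match. The promoters of Npas2, Nr1d2 and Dbp held no match, and Per2 had no promoter in the table. Besides the 4 shown, Nfil3 had the RRE letters TAGGTCA on the other strand at -12, and 1 promoter of Per1 had an E-box at -166. Both strands were searched, and the CRE letters TGACGTCA were searched too. Among 32851 promoters of the table, 7.15% held CACGTG, 4.68% CACGTT, 2.32% TTANGTAA, 2.61% TAGGTCA, 1.44% TAGGTTA and 1.79% TGACGTCA. The share of promoters with at least 1 of these motifs was not computed, so the count of 6 genes has no such share beside it. The match is a description of these letters in this window.

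As for the tissue, the 8 proximal tubule markers averaged between 12.6 and 12.9 log2 in aliskiren mice and between 12.4 and 13.0 log2 in losartan mice. Losartan mouse 3 stood apart on the whole array, being the highest or lowest of the 10 mice in 54.1% of tested genes, and its 3 tested fat markers averaged 12.2 log2, against 6.50 to 6.64 log2 in the other losartan mice. Aliskiren mice 2 and 3 also had raised fat markers, at 8.01 and 9.76 log2, beside 6.40 to 6.60 log2 in aliskiren mice 1, 4 and 5. Aliskiren mouse 1 was at an extreme in 18.7% of tested genes, 11.8% as the highest and 6.83% as the lowest. That mouse is the one in which most of the clock genes departed furthest from the rest, so the comparisons and relations of the 10 clock genes are given with and without it.

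Aliskiren mouse 1 combined high Arntl with low Dbp beyond the range of the other 9 mice. Arntl and Nfil3 were highest in this mouse, and Dbp, Per1, Per2, Per3, Nr1d2 and Ciart were lowest in it, so that all 8 tested clock genes were at an extreme, against 18.7% of all tested genes. For 7 of the 8 the distance from the mean of the other 9 mice was at least 1 log2 unit, against 1.23% of all tested genes. Dbp, at -3.22 log2, had the largest such distance of the 11486 tested genes, and Arntl, at 2.90 log2, the second largest, rank 2. By the same ranking Per2 stood at rank 7, Nfil3 at 20, Ciart at 31, Per3 at 44, Nr1d2 at 129 and Per1 at 221. Between Arntl and Per2 stood Igha, Jchain, Igkv8-30 and Kynu, at 2.58, 2.47, 2.28 and -2.25 log2, named after their values were seen. These counts and ranks describe 1 mouse, in genes chosen with earlier results of these data known, and carry no test. Its 5 macrophage markers averaged 9.20 log2, against 7.59 to 8.37 log2 in the other aliskiren mice, and its 7 tubular injury markers 9.52 log2, against 8.04 to 8.95 log2. Losartan mouse 3 had higher averages on both lists, 9.72 and 10.8 log2, with Arntl and Dbp within the range of the other losartan mice. The part of the macrophage, injury or fat markers in the clock pattern was not tested. Values with the injury and fat markers as covariates, in fits that include aliskiren mouse 1, stand with the slopes on Arntl.

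**Figure D1:**
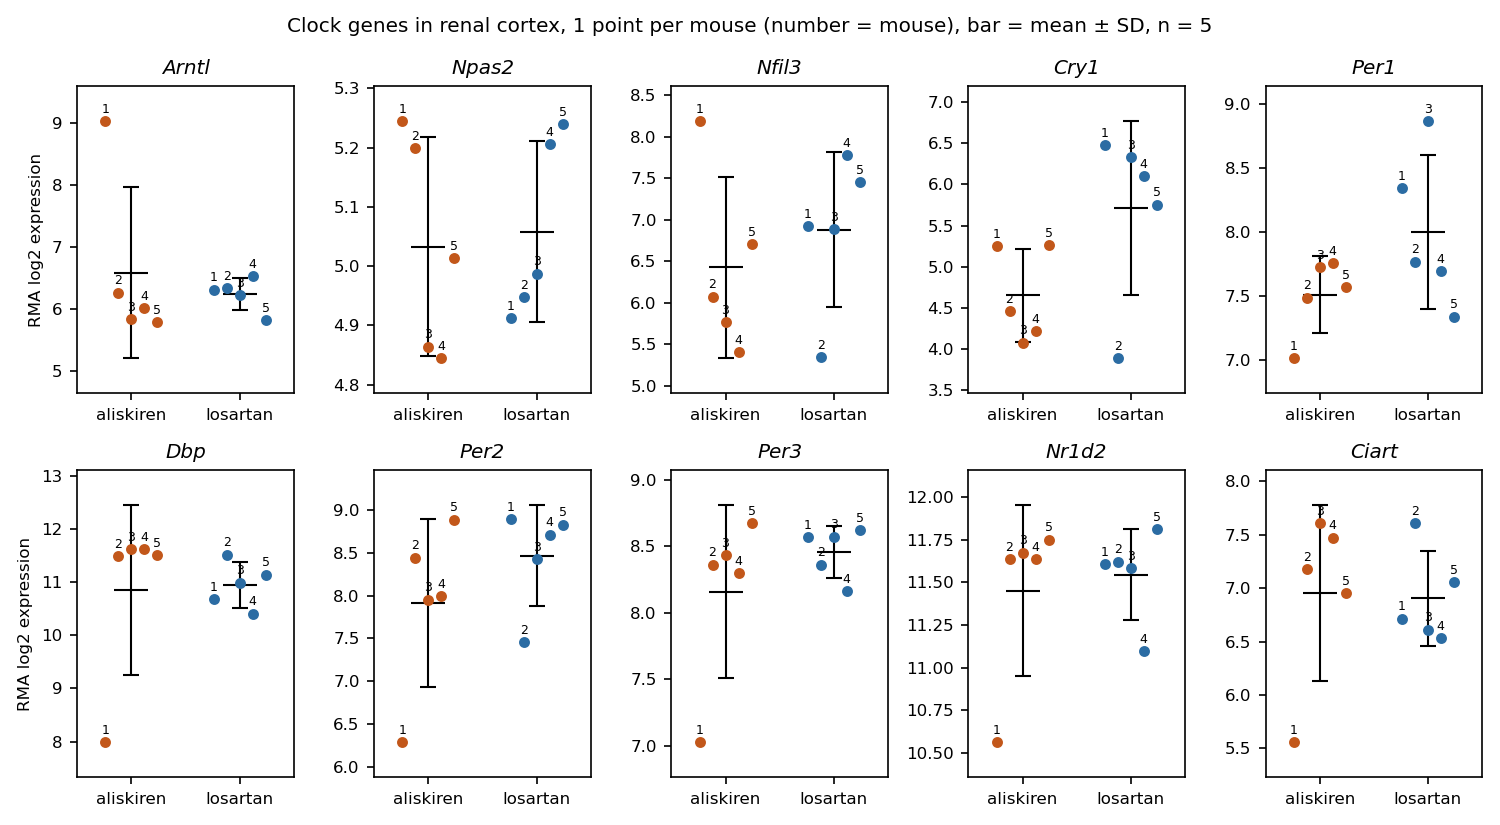
RMA log2 values (y axes) of the main probe set of the 10 clock genes, 1 panel per gene with its own axis range and 1 numbered point per mouse, aliskiren mice left of losartan mice, with the mean and SD of each group (n = 5). Aliskiren mouse 1 lies at 9.03 for Arntl and 7.99 for Dbp, outside the range of the other 9 mice in both.

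Arntl codes for the activator at the centre of the loop. Its level was 9.03, 6.26, 5.84, 6.01 and 5.79 log2 in aliskiren mice 1 to 5, and 6.31, 6.33, 6.22, 6.53 and 5.82 log2 in losartan mice 1 to 5. Aliskiren mouse 1 stood alone, and the other 9 mice lay within 5.79 to 6.53 log2 with both groups overlapping. The group means were 6.58 ± 1.38 log2 with aliskiren and 6.24 ± 0.26 log2 with losartan (SD, n = 5 each). A dimmer probe set of Arntl read 5.27 log2 in aliskiren mouse 1, against 4.66 to 4.81 log2 in the other aliskiren mice and 4.68 to 5.46 log2 in the losartan mice, so there losartan mouse 4 was higher.

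Npas2 codes for a partner of ARNTL that can stand in for CLOCK. Its main probe set was dim and nearly flat, at 5.24, 5.20, 4.86, 4.85 and 5.01 log2 in aliskiren mice 1 to 5, against 4.91, 4.95, 4.99, 5.21 and 5.24 log2 in losartan mice 1 to 5. Its other probe set had the largest single departure among the 21, with 8.24 log2 in aliskiren mouse 1, 3.98 to 4.86 log2 in the other aliskiren mice and 3.94 to 5.87 log2 in losartan mice. The probe sets of Npas2 thus disagreed in size, both lay below the level filter by their mean, and in both aliskiren mouse 1 was the highest, in the main one by almost nothing.

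Nfil3 codes for the repressor that competes with DBP at D-boxes. It read 8.18, 6.07, 5.77, 5.40 and 6.71 log2 in aliskiren mice 1 to 5, against 6.92, 5.34, 6.88, 7.78 and 7.45 log2 in losartan mice 1 to 5. Aliskiren mouse 1 was highest. Without it, 4 losartan mice lay above every aliskiren mouse and losartan mouse 2 lay below them all.

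Cry1 codes for a repressor of the ARNTL and CLOCK pair. It read 5.25, 4.46, 4.08, 4.22 and 5.26 log2 in aliskiren mice 1 to 5, against 6.48, 3.89, 6.33, 6.10 and 5.76 log2 in losartan mice 1 to 5. Aliskiren mouse 1 was not at an extreme for this gene. As with Nfil3, 4 losartan mice lay above all 5 aliskiren mice and losartan mouse 2 below them.

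Dbp codes for a D-box activator whose transcript swings widely over the day in mouse kidney. It read 7.99, 11.49, 11.61, 11.62 and 11.51 log2 in aliskiren mice 1 to 5, against 10.68, 11.51, 10.99, 10.41 and 11.14 log2 in losartan mice 1 to 5. Aliskiren mice 2 to 5 and losartan mouse 2 lay within 11.49 to 11.62 log2, the other losartan mice lower, and aliskiren mouse 1 far below all. A second probe set gave the same lowest mouse, with 6.59 log2 in aliskiren mouse 1, 10.04 to 10.20 log2 in the other aliskiren mice and 8.83 to 10.16 log2 in losartan mice.

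Per3 codes for a period protein with little effect on the loop itself in mice. It read 7.03, 8.36, 8.43, 8.30 and 8.67 log2 in aliskiren mice 1 to 5, against 8.57, 8.36, 8.57, 8.16 and 8.62 log2 in losartan mice 1 to 5. All mice but aliskiren mouse 1 lay within 8.16 to 8.67 log2. Per3 had 6 probe sets, and aliskiren mouse 1 was lowest in all 6, by -1.42 to -0.35 log2 from the mean of the other 9 mice.

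Nr1d2, which codes for the repressor REV-ERB beta, read 10.57, 11.64, 11.67, 11.64 and 11.75 log2 in aliskiren mice 1 to 5, against 11.61, 11.62, 11.58, 11.10 and 11.81 log2 in losartan mice 1 to 5. Losartan mouse 4, which had the second highest Arntl, had the second lowest Nr1d2. Ciart, which codes for a repressor of the ARNTL and CLOCK pair, read 5.56, 7.18, 7.61, 7.47 and 6.95 log2 in aliskiren mice 1 to 5, against 6.71, 7.61, 6.61, 6.53 and 7.05 log2 in losartan mice 1 to 5. Apart from aliskiren mouse 1, both groups overlapped for these genes.

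Per2 and Per1 code for the period proteins that close the loop. Per2 read 6.29, 8.45, 7.95, 7.99 and 8.89 log2 in aliskiren mice 1 to 5, against 8.89, 7.46, 8.43, 8.71 and 8.83 log2 in losartan mice 1 to 5. Aliskiren mouse 1 was lowest in each of the 3 Per2 probe sets, and losartan mouse 2 came next in the main one. Per1, which glucocorticoids also induce, read 7.02, 7.49, 7.73, 7.76 and 7.57 log2 in aliskiren mice 1 to 5, against 8.34, 7.77, 8.86, 7.70 and 7.34 log2 in losartan mice 1 to 5. Losartan mice 1 and 3 were the highest for Per1, and aliskiren mouse 1 the lowest.

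The clock genes varied between mice of the same drug more than most genes. The within-group SD was 1.17 log2 for Dbp, 1.02 for Nfil3, 0.99 for Arntl and 0.81 for Per2, against a median of 0.14 log2 over tested genes. The percentile among tested genes ran from 91.4 for Nr1d2 to 99.6 for Dbp. Without aliskiren mouse 1 the SD of Nfil3 was 0.79 log2, at percentile 98.3, and that of Per2 0.53 log2, at percentile 95.2. Arntl then had an SD of 0.24 log2, at percentile 79.1, Nr1d2 one of 0.20 log2, at percentile 71.7, and Per3 one of 0.18 log2, at percentile 65.6. Per1 stood at percentile 93.6, Ciart at 90.9 and Dbp at 87.8. Nfil3, Per2, Per1, Ciart and Dbp therefore stayed among the widely varying genes without that mouse. Arntl, Nr1d2 and Per3 came nearer to the median gene.

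Whether the drugs differed was asked with limma, as aliskiren minus losartan. No clock gene passed Benjamini-Hochberg adjustment at 0.05, and of the 11486 genes tested 0% did. At an unadjusted p under 0.05 the counts were 0 of 8 clock genes and 4.72% of all tested genes, 2.19% with a positive and 2.53% with a negative difference. The difference was -0.49 log2 for Per1 (SE 0.27, limma adjusted p = 0.945), the clock gene of smallest p. For Dbp it was -0.10 log2 (SE 0.65, limma adjusted p = 0.995), with a 95% confidence interval wide enough to hold a change of 1 log2 unit in either direction. Arntl differed by 0.34 log2 (SE 0.55), Nfil3 by -0.45 (SE 0.57), Per2 by -0.55 (SE 0.45), Per3 by -0.30 (SE 0.27), Nr1d2 by -0.09 (SE 0.23) and Ciart by 0.05 (SE 0.37), all on the log2 scale. The untested Cry1 differed by -1.06 log2 (SE 0.53) and Npas2 by -0.03 log2 (SE 0.11). In none of the 10 genes did the groups stand clear of each other, against 0.914% of tested genes.

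Aliskiren mouse 1 decided the direction for Arntl, Dbp and Nr1d2. Without it, in 4 aliskiren mice against 5 losartan mice, Dbp differed by 0.61 log2 (SE 0.19, unadjusted p = 0.011 and adjusted p = 0.869 in limma), Arntl by -0.27 log2 (SE 0.15) and Nr1d2 by 0.13 log2. The difference of Nfil3 was then -0.89 log2 (SE 0.46), that of Cry1 -1.21 log2 (SE 0.58, untested) and that of Ciart 0.40 log2 (SE 0.23), while Per1 differed by -0.37, Per2 by -0.14 and Per3 by -0.02 log2. Dbp was thus the 1 clock gene of 8 under an unadjusted p of 0.05, against 4.63% of all tested genes, and 0% passed the adjustment. The groups still overlapped in all 10 clock genes, and losartan mouse 2 lay with or beyond the aliskiren mice in Nfil3, Cry1, Dbp and Ciart. Groups that did not overlap made up 1.83% of tested genes without this mouse.

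The phases were then summed up per mouse. Each gene was centred on its mean over the 10 mice, and the Arntl-phase mean was taken over Arntl, Npas2, Nfil3 and Cry1, the opposite-phase mean over Dbp, Per2, Per3, Nr1d2 and Ciart. The Arntl-phase mean minus the opposite-phase mean was 2.78 log2 in aliskiren mouse 1, then -0.58, -0.98, -0.94 and -0.52 log2 in aliskiren mice 2 to 5. It was 0.20, -0.84, 0.21, 0.76 and -0.08 log2 in losartan mice 1 to 5. Aliskiren mouse 1 was far above all, losartan mice 1, 3, 4 and 5 lay between it and the other aliskiren mice, and losartan mouse 2 lay among aliskiren mice 2 to 5. The group means were -0.05 ± 1.59 log2 with aliskiren and 0.05 ± 0.59 log2 with losartan (SD, n = 5 each), a difference of -0.10 log2 (SE 0.76). Without aliskiren mouse 1 the aliskiren mean was -0.76 ± 0.24 log2 (SD, n = 4) and the difference -0.81 log2 (SE 0.29). With the probe set of largest SD for each gene in place of that of highest mean, the difference between the drugs was 0.05 log2 over 10 mice, the opposite sign. Aliskiren mouse 1 then had 3.54 log2, aliskiren mice 2 to 5 lay between -0.97 and -0.73 log2, and the losartan mice lay between -0.61 log2 in mouse 2 and 0.74 log2 in mouse 4, with mouse 1 at -0.06 log2. Under that choice losartan mouse 2 lay just above aliskiren mice 2 to 5 and no longer among them. No test was made of these sums, because the genes were chosen with results of these mice known.

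Taken apart, the phases gave the following. In aliskiren mouse 1 the Arntl-phase mean was 1.102 log2 and the opposite-phase mean -1.68 log2. In aliskiren mice 2 to 5 the Arntl-phase mean lay between -0.71 and -0.13 log2, against 0.24 to 0.58 log2 in losartan mice 1, 3, 4 and 5 and -0.69 log2 in losartan mouse 2. The opposite-phase mean lay between 0.24 and 0.39 log2 in aliskiren mice 2 to 5, against -0.18 to 0.33 log2 in the losartan mice. Among these 9 mice the aliskiren minus losartan difference was -0.61 log2 (SE 0.26) in the Arntl-phase mean and 0.20 log2 (SE 0.09) in the opposite-phase mean. The untested Cry1, at -1.21 log2, and Nfil3, at -0.89 log2, were the genes of the Arntl phase with the largest differences. Arntl itself differed by -0.27 log2 and the untested Npas2 by -0.08 log2.

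**Figure D2:**
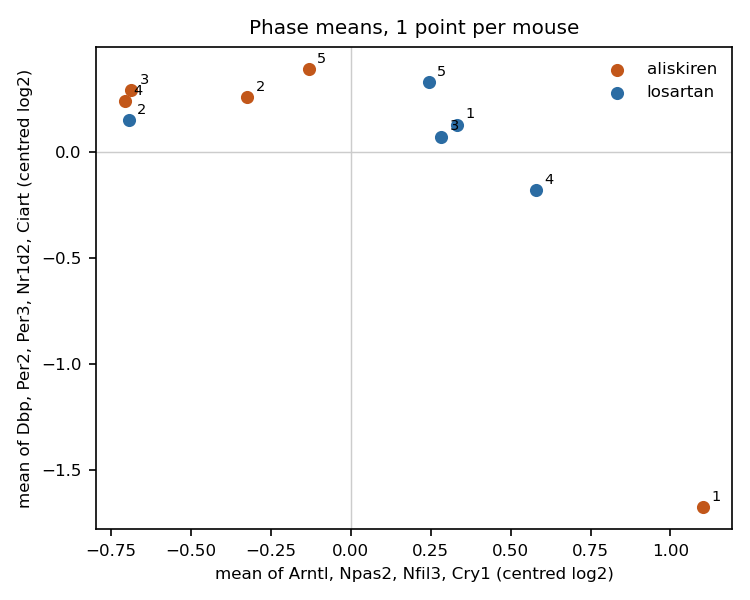
Opposite-phase mean (y axis: Dbp, Per2, Per3, Nr1d2, Ciart) against Arntl-phase mean (x axis: Arntl, Npas2, Nfil3, Cry1) on the centred log2 scale, 1 numbered point per mouse, aliskiren in orange and losartan in blue. Aliskiren mouse 1 lies at the lower right, with an opposite-phase mean of -1.68, and losartan mouse 2 lies beside aliskiren mice 3 and 4.

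To ask which genes moved with Arntl from mouse to mouse beyond the drug, each gene was fitted in limma on the Arntl level with the drug as a term. Over 10 mice 2 genes passed the adjustment, both with a negative slope and both clock genes, Dbp and Per3. They were 2 of 11485 genes tested (0.0174%), and 0% passed with a positive slope. Dbp fell by 1.13 log2 per log2 unit of Arntl (SE 0.11, limma adjusted p = 0.0102), and Per3 fell by 0.47 (SE 0.04, limma adjusted p = 0.0102). The slope was -0.38 for Nr1d2 (SE 0.05, limma adjusted p = 0.146), -0.56 for Ciart (SE 0.12, limma adjusted p = 0.478) and -0.65 for Per2 (SE 0.16, limma adjusted p = 0.575). Nfil3 had a slope of 0.66 (SE 0.26, limma adjusted p = 0.907) and Per1 one of -0.17 (SE 0.15). At an unadjusted p under 0.05 there were 6 of 7 clock genes, against 5.25% of all tested genes. With the tubular injury markers as a covariate the slope was -1.19 for Dbp and -0.49 for Per3 (limma adjusted p = 0.00762 for each), and with the fat markers it was -1.13 and -0.46 (limma adjusted p = 0.0218 for each). The genes under an unadjusted p of 0.05 were Nfil3 with a positive slope, against 3.58% of tested genes, and Dbp, Per2, Per3, Nr1d2 and Ciart with a negative one, against 1.67%.

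These slopes rest on aliskiren mouse 1, whose Arntl level lay 2.78 log2 from the median of the 10 mice. Without it no gene passed in either direction, the slope of Dbp was -0.54 (unadjusted p = 0.253 in limma) and that of Per3 -0.55 (unadjusted p = 0.026 in limma). Nr1d2 had a slope of -0.63 (unadjusted p = 0.0225 in limma), so the direction of these 3 genes held among the other 9 mice, with adjusted p = 0.9999 for each. The slope of Per2 was then -0.42 and that of Ciart -0.30, also with the sign kept. That of Nfil3 was -0.52 and that of Per1 0.33, both with the sign turned. Unadjusted p lay under 0.05 for 2 of 7 clock genes, Per3 and Nr1d2, against 2.38% of all tested genes.

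**Figure D3:**
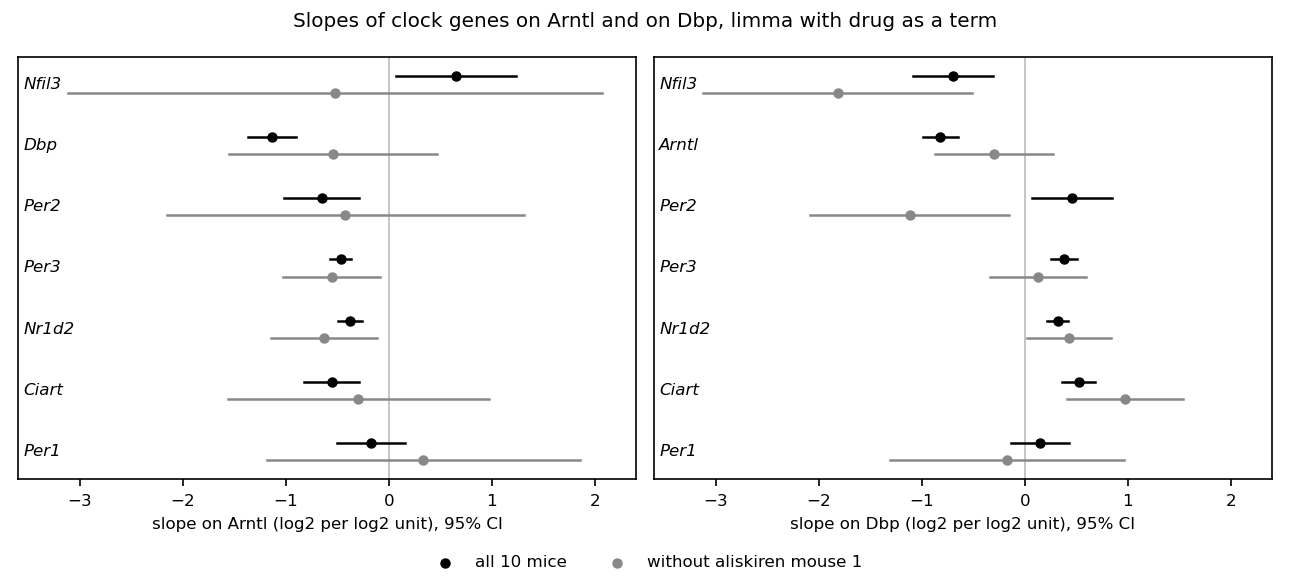
Slopes of 7 clock genes on Arntl (left) and on Dbp (right) in log2 per log2 unit, with 95% confidence intervals from limma with the drug as a term, for all 10 mice (black) and without aliskiren mouse 1 (grey). The intervals on Arntl are narrow over 10 mice, at -1.13 for Dbp and -0.47 for Per3, and wide without that mouse.

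The fit on Dbp gave the same relation seen from the other side. Arntl was the 1 gene that passed, with a slope of -0.82 (SE 0.08, limma adjusted p = 0.0172), and it made up 0.00871% of the genes tested. Ciart had a slope of 0.52, Per3 of 0.38 and Nr1d2 of 0.32, each with adjusted p = 0.118 in limma, and Per2 one of 0.46. Nfil3 had a slope of -0.70 (unadjusted p = 0.00258 in limma). At an unadjusted p under 0.05 there were 6 of 7 clock genes, against 4.01% of tested genes, 4 of them positive, against 1.47%, and 2 negative, against 2.53%. Without aliskiren mouse 1 no gene passed, and the slope of Arntl was -0.30 (SE 0.25). No gene passed either with any other aliskiren mouse, or losartan mouse 1 or 4, left out in its place.

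Among those 9 mice Dbp was followed by Ciart, with a slope of 0.98 (SE 0.25, unadjusted p = 0.00388 in limma), and by Nr1d2, with 0.43 (unadjusted p = 0.0407 in limma). It was opposed by Nfil3, with a slope of -1.82 (SE 0.57, unadjusted p = 0.0123 in limma), and by the untested Cry1, with -2.01 (SE 0.72). Per2 had a slope of -1.12 (SE 0.42, unadjusted p = 0.0276 in limma), the opposite sign to the fit over 10 mice. These were 4 of 7 clock genes under an unadjusted p of 0.05, against 2.69% of all tested genes, and the adjusted p was 0.9997 for each. Aliskiren mouse 1 and the other mice thus gave Per2 opposite relations to Dbp: it was low together with Dbp in aliskiren mouse 1, and in losartan mouse 2 it was low while Dbp was high.

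Whether the slope on Arntl differed between the drugs was tested as an interaction. It passed for 0% of genes, with 3.55% under an unadjusted p of 0.05, 1.14% positive and 2.41% negative. The difference in slope was -0.40 for Dbp (SE 0.59, unadjusted p = 0.52 in limma) and 0.11 for Per3 (SE 0.25, unadjusted p = 0.67 in limma). It again passed for 0 genes without aliskiren mouse 1, with 1.91% under an unadjusted p of 0.05, and the difference in slope was 0.62 for Dbp (SE 0.98) and 0.07 for Per3 (SE 0.47). In losartan mice Arntl spanned only 5.82 to 6.53 log2, which limits this comparison, and without losartan mouse 5 it gave 375 positive and 56 negative calls over all genes.

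By rank and by linear correlation over the 10 mice, the clock genes most closely related to Arntl were Nr1d2, Dbp and Per3. Nr1d2 had Pearson r = -0.936 (permutation p = 7e-05, adjusted p = 0.325) and Spearman rho = -0.879 (permutation p = 0.00152) over 10 mice. In the 9 mice left without aliskiren mouse 1, r was -0.772 (exact permutation p = 0.000499, adjusted p = 0.744, n = 9) and rho -0.833 (exact permutation p = 0.00827). Without aliskiren mice 1 and 5, the 2 mice farthest from the median of Arntl, r was -0.757 (exact permutation p = 0.00149, n = 8). For Dbp r was -0.954 (permutation p = 0.00342, adjusted p = 0.786) and rho -0.60 (permutation p = 0.0723). Over the same 9 mice r was -0.62 (exact permutation p = 0.0752, n = 9) and rho -0.45 (exact permutation p = 0.23), and without both mice r was -0.589 (exact permutation p = 0.122, n = 8). For Per3 r was -0.962 (permutation p = 0.00391, adjusted p = 0.802) and rho -0.794 (permutation p = 0.00872). Over these 9 mice r was -0.603 (exact permutation p = 0.0857, n = 9) and rho -0.717 (exact permutation p = 0.0369), and without both mice r was -0.483 (exact permutation p = 0.218, n = 8). In those 9 mice the unadjusted p of r was thus over 0.05 for Dbp and Per3, though under it for Per3 by rank, and it was under 0.05 for Nr1d2 by r and by rank. The relation of Dbp and Per3 to Arntl by r rests on that mouse at this threshold, and none passed the adjustment.

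The remaining clock genes were less closely related to Arntl. For Ciart r was -0.814 (permutation p = 0.0133) and rho -0.406 (permutation p = 0.247), and for Per2 r was -0.799 (permutation p = 0.0426) and rho -0.394 (permutation p = 0.264). Nfil3 had r = 0.563 (permutation p = 0.048) and rho = 0.333, and Per1 r = -0.405 (permutation p = 0.234) and rho = 0.018. Over the 9 mice without aliskiren mouse 1, r was -0.403 for Ciart, -0.081 for Per2, 0.168 for Nfil3 and 0.352 for Per1. Without aliskiren mice 1 and 5, r was -0.521 for Ciart, 0.11 for Per2, 0.243 for Nfil3 and 0.293 for Per1. The untested Npas2 had r = 0.465 and Cry1 r = 0.093 over 10 mice, and 0.192 and 0.266 without aliskiren mouse 1. Of 11485 genes correlated with Arntl, none passed the adjustment by r or by rho, and 5.29% had p under 0.05 by r. With 5 mice per drug no correlation within a drug was computed.

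**Figure D4:**
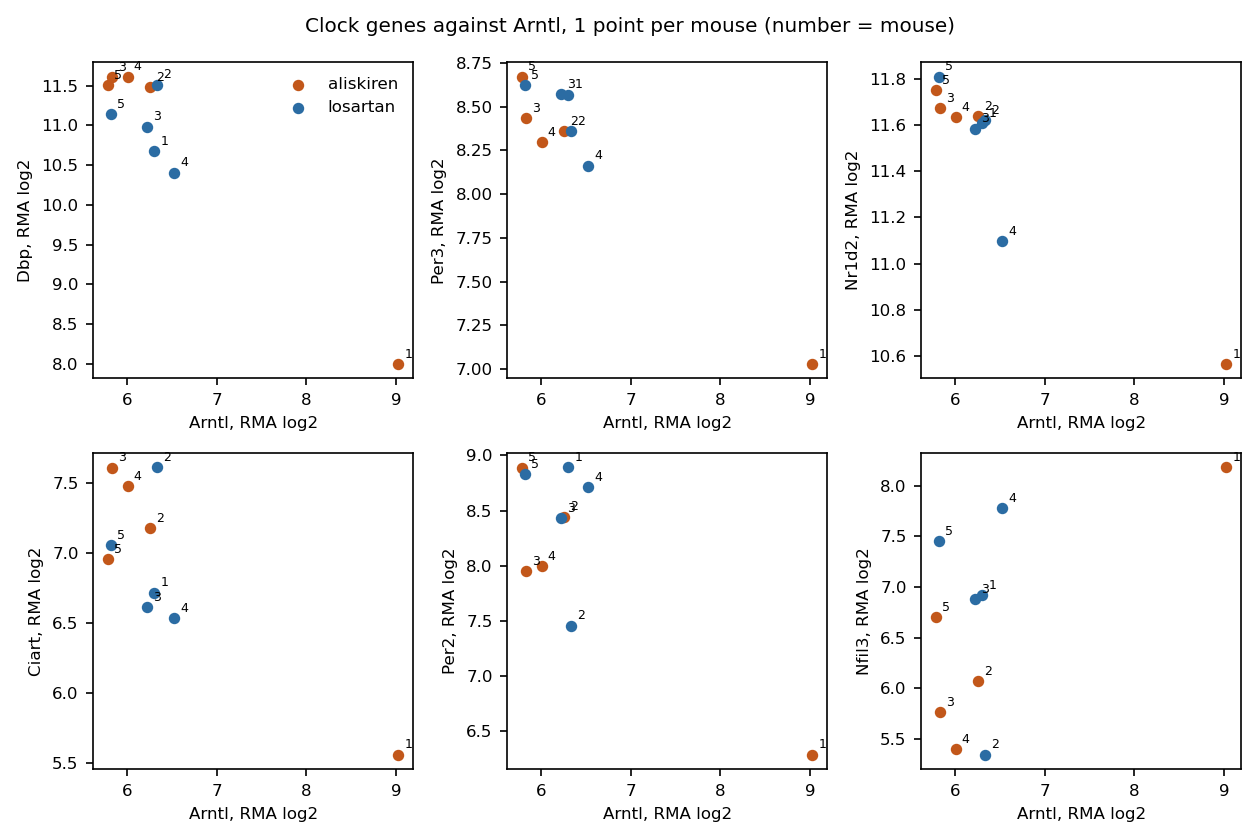
RMA log2 level of 6 clock genes (y axes) against that of Arntl (x axes), 1 point per mouse with its number, aliskiren and losartan mice by colour. Aliskiren mouse 1 lies at 9.03 on the Arntl axis and the other 9 mice between 5.79 and 6.53.

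Of 16 other components of the clock machinery, 11 were tested. Among these, aliskiren mouse 1 was highest in 2 and lowest in 2, against 11.8% and 6.83% of tested genes. On Arntl, 2 had a positive and 2 a negative slope at an unadjusted p under 0.05, against 3.58% and 1.67% of tested genes, none adjusted. Clock, which codes for the usual partner of ARNTL, read 9.04 log2 in aliskiren mouse 1, against 8.48 to 8.77 log2 in the other 9 mice, with a slope of 0.14 (unadjusted p = 0.00759 in limma). Cry2, a cryptochrome like Cry1, read 6.21 log2 in that mouse, against 6.74 to 7.42 log2 in the rest, with a slope of -0.26 (unadjusted p = 0.00217 in limma). Bhlhe40, which codes for an E-box repressor, had a slope of -0.28 (unadjusted p = 0.013 in limma), with 9.66 log2 in aliskiren mouse 1 and 9.65 log2 in losartan mouse 4. With aliskiren mouse 1 left out, the slope of Clock was 0.01 (unadjusted p = 0.938 in limma), that of Cry2 -0.31 (unadjusted p = 0.30 in limma) and that of Bhlhe40 -0.92 (unadjusted p = 0.0319 in limma). Bhlhe40 was then the 1 of the 11 under an unadjusted p of 0.05, against 2.38% of tested genes. Nr1d1, the sister gene of Nr1d2, read 6.04 log2 in aliskiren mouse 1, within the 5.64 to 7.28 log2 of the rest. That gene was chosen after its values were seen, as were Csnk1d, the kinase gene with the other positive slope, and Noct, named next. Noct, a clock-controlled gene, read 7.72, 7.48, 7.76, 7.69 and 7.39 log2 in aliskiren mice 1 to 5, against 8.99, 7.22, 8.33, 8.55 and 7.45 log2 in losartan mice 1 to 5, so it was high in losartan mice 1, 3 and 4.

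Of 15 genes known as clock outputs in several tissues, all were tested, and aliskiren mouse 1 was highest in 2 and lowest in 7, against 11.8% and 6.83% of tested genes. Tef, which codes for a D-box activator related to DBP, read 10.07 log2 in aliskiren mouse 1 and 10.52 to 11.21 log2 in the rest, with a slope on Arntl of -0.33 (SE 0.06, adjusted p = 0.346 in limma). Coq10b, a gene of coenzyme Q function, read 9.17 log2 in that mouse, against 9.42 to 10.20 log2 (slope -0.28, unadjusted p = 0.00133 in limma). Leo1 read 7.63 log2, against 6.71 to 7.31 log2 (slope 0.25, unadjusted p = 0.000841 in limma). Without aliskiren mouse 1 the slope of Tef was 0.02, that of Coq10b -0.09 and that of Leo1 0.31. Usp2, which codes for a deubiquitinase under clock control, was chosen after its values were seen and read 9.81 log2 in aliskiren mouse 1, against 10.47 to 11.30 log2 in the rest. Ypel2, chosen in the same way, went in the other direction, with 10.16 log2 in that mouse, against 8.31 to 9.96 log2. Its distance from the mean of the other 9 mice was 1.32 log2, beside -1.04 log2 for Usp2. In all, 5 of the 15 had an unadjusted p under 0.05, against 5.25% of tested genes, and none was called. Leaving out aliskiren mouse 1 gave 0 of 15, against 2.38%.

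**Figure D5:**
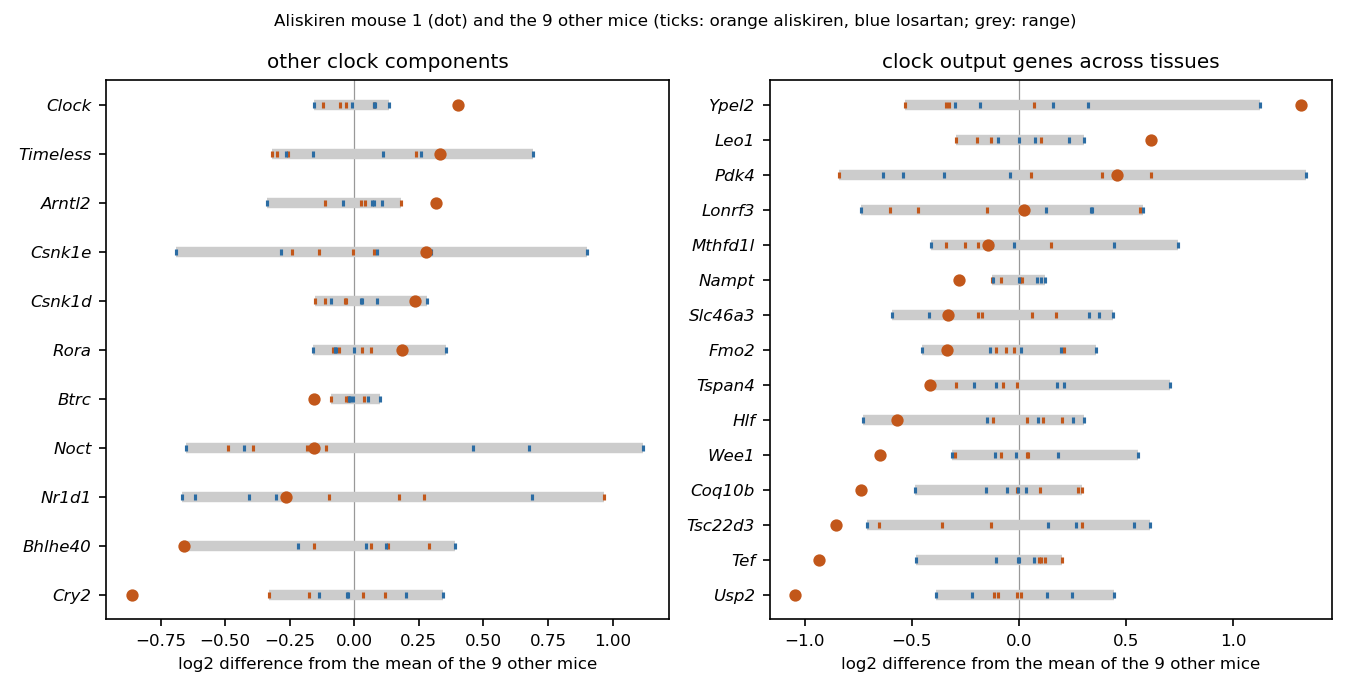
Log2 level of aliskiren mouse 1 (dot) and of the other 9 mice (ticks, aliskiren in orange and losartan in blue, grey bar for their range), each as the difference from the mean of those 9 mice (x axes), for the 11 tested other clock components (left) and 15 clock output genes (right). Usp2 lies at -1.04 and Tef at -0.93, both below the range of the other mice, and Ypel2 lies at 1.32, above it.

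Genes known for a daily rhythm in the kidney, and genes that respond to cues which also reach the clock, were counted in the same fit. Among 15 such renal genes, among them those for aquaporins, the sodium channel and endothelin, 0 had an unadjusted p under 0.05 for the slope on Arntl. Aqp2, the water channel of the collecting duct, came first with -0.18 (unadjusted p = 0.175 in limma), followed by Atp1b1 with -0.05 and Edn1 with 0.17. Among 12 genes induced by glucocorticoids 1 did, Fkbp5, with 0.28 (unadjusted p = 0.0256 in limma), and among 9 temperature-responsive genes 1 did, Hsp90aa1, with 0.12 (unadjusted p = 0.0423 in limma). These are shares of 0 to 11.1% per list, beside 5.25% of tested genes. The slope without aliskiren mouse 1 turned its sign for Aqp2, to 0.93 (unadjusted p = 0.0603 in limma), and for Hsp90aa1, to -0.14 (unadjusted p = 0.534 in limma). That of Fkbp5 was 0.33 (unadjusted p = 0.517 in limma), that of Atp1b1 -0.03 and that of Edn1 0.18. The counts under an unadjusted p of 0.05 were then 1 of 15, 0 of 12 and 0 of 9, the 1 being the water channel gene Aqp4, chosen after its values were seen. Fewer cells of a type and less RNA per cell cannot be told apart in whole cortex.

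Outside the 10 clock genes, the genes with the smallest p for a positive slope on Arntl were Tfpi2, Gfer, Lrig2, Ppard, Slc16a1 and Vps37d, with slopes of 0.22 to 0.59 over 10 mice and limma adjusted p of 0.199 to 0.345. Slc16a1, a lactate and pyruvate carrier gene, read 10.94 log2 in aliskiren mouse 1, against 8.79 to 9.89 log2 in the rest. Ppard, which codes for a nuclear receptor of fatty acid use, read 7.27 log2, against 5.61 to 6.31 log2. With a negative slope they were A930033H14Rik, Lncpint, Tef, Cpeb3, Tln2 and Car14, with slopes of -0.44 to -0.28 and limma adjusted p of 0.345 to 0.478. Car14, a carbonic anhydrase gene, read 9.44 log2 in aliskiren mouse 1, against 10.48 to 11.37 log2 in the rest. Without that mouse the slope of Gfer was 0.49 (unadjusted p = 0.0111 in limma) and that of A930033H14Rik -0.70 (unadjusted p = 0.0134 in limma), while that of Car14 was 0.03 and that of Tfpi2 0.02.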

How the data were processed

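Renal cortex RNA of 10 mice was hybridised to Affymetrix mouse arrays, 1 per mouse, after labelling of 100 ng, per the labels' protocols. The authors deposited log2 values for 45101 probe sets, and the submitters' processing notes name RMA and Affymetrix Expression Console 1.1. RMA sets all arrays to 1 distribution, so a difference in total RNA between mice is not visible. Arrays have no depth, and 5 mice per drug limit the precision. Array medians lay between 5.53 and 5.57, and 0 of 45 pairs of arrays were identical.

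After 64 control probe sets were left out, genes were named from the 34945 probe sets with 1 symbol in the platform annotation, while 932 had several and 9160 none. Each gene took its probe set of highest mean and was tested at a mean of at least 5.53. limma 3.58.1 (R 4.3.3) was fitted with two-sided moderated tests and Benjamini-Hochberg adjustment over all tested genes, for the drug, for the slope on Arntl or Dbp with the drug as a term, and for the drug by Arntl interaction. Correlations used 100000 permutations, or all of them for 9 or 8 mice. The fits for the drug and for the slope on Arntl were tested on simulated data.

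The clock genes and all lists were chosen with earlier results of these data known. The text names every clock gene, the 6 other genes of smallest p in each direction on Arntl and up to 3 genes per list, and says where a gene was picked after its values had been seen. Alternatives changed the filter, how probe sets stood for genes, the array scaling, the variance model, array weights, covariates, the mouse number as a block and the mice included.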

Additional observations from a re-analysis of the deposited data

Results flagged for a closer look

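Among 48 groups of 5 values examined, 15 had 1 mouse whose gap to its nearest neighbour, divided by the range of its group, exceeded 0.71. Chance flags about 1 in 20 groups, and several of the 15 are probe sets of the same gene. Over all tested genes the same rule set apart aliskiren mouse 1 in 2.81%, losartan mouse 2 in 0.575% and losartan mouse 4 in 0.784%. Losartan mouse 3, in none of the 15, was set apart in 6.55%. In the aliskiren group mouse 1 was the one set apart in Arntl at 9.03 log2, against 5.79 to 6.26 in the other 4 mice, in Dbp at 7.99, against 11.49 to 11.62, in Per3 at 7.03, against 8.30 to 8.67, and in Nr1d2 at 10.57, against 11.64 to 11.75. The same mouse was set apart in the opposite-phase mean at -1.68 log2 and in the Arntl-phase mean minus the opposite-phase mean at 2.78 log2. It was also set apart in other probe sets of these genes, at 5.27 log2 for Arntl, 8.24 for Npas2, 5.56 and 5.46 for Per3, 3.68 for Nr1d2 and 6.59 for Dbp.

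In the losartan group mouse 2 was set apart in Cry1 at 3.89 log2, against 5.76 to 6.48 in the other 4 losartan mice, and in the Arntl-phase mean at -0.69 log2, against 0.24 to 0.58. Losartan mouse 4 was set apart in a dim Per3 probe set at 5.30 log2, against 4.44 to 4.58. Nothing in the labels marks these mice, and the cause was not tested.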

How the results depend on the processing

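Under the alternatives, 978 of the recomputed values counted as unchanged, 30 moved, 35 reversed, 20 weakened and 1 became a call. That call was Nr1d2 on Arntl without losartan mouse 4, at -0.36. A tested gene in the limma fits counted as unchanged if its direction and side of the threshold held. The untested Npas2 and Cry1 did so if the change was under their within-group SD, whatever the sign. Cry1 thus counted as unchanged though its slope on Arntl went from 0.21 to -0.32 without aliskiren mouse 1. Counts of calls did so if equal or close in ratio. The cause of each change was not tested. The negative calls on Arntl, 2 over 10 mice, were 0 with an ordinary t without moderation, with array weights, with the replicate block and without losartan mouse 3 and aliskiren mouse 1, and 0 to 3 when 1 mouse was left out. The positive calls on Arntl, 0 over 10 mice, were 1 with the mean of all probe sets and 2 with tubular injury markers as a covariate. The negative calls on Dbp, 1 over 10 mice, were 0 with a stricter level filter, an ordinary t, the replicate block or both mice left out, 2 with the injury covariate, and 0 to 1 when 1 mouse was left out, as were the positive calls. The interaction gave 0 to 375 positive and 0 to 56 negative calls when 1 mouse was left out, the highest without losartan mouse 5. The drug difference in the phase sum, -0.10 log2 over 10 mice, ranged from -0.81 to 0.13 log2 when 1 mouse was left out, and was 0.05 log2 with the probe set of largest SD and -0.77 log2 without losartan mouse 3 and aliskiren mouse 1.

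The drug difference of Dbp was 0.28 with array weights, and that of Ciart -0.009 with the injury covariate. The array weights did not fully converge. Without losartan mouse 3 and aliskiren mouse 1 it was -0.27 for Arntl, 0.013 for Per3, 0.14 for Nr1d2 and 0.62 for Dbp. When 1 mouse was left out it ranged from -0.27 to 0.54 for Arntl, -0.08 to 0.02 for Npas2, -0.20 to 0.13 for Nr1d2, -0.29 to 0.61 for Dbp and -0.11 to 0.40 for Ciart. The slope on Arntl was -0.66 for Nfil3 and 0.36 for Per1 with array weights, and -0.52 and 0.39 with both mice left out. With 1 mouse left out it ranged from -0.52 to 0.77 for Nfil3, -0.32 to 0.32 for Cry1 and -0.23 to 0.33 for Per1. The slope on Dbp with both mice left out was -0.23 for Per1 and -1.12 for Per2, and with 1 mouse left out it ranged from -0.17 to 0.17 for Per1 and from -1.12 to 0.54 for Per2. The difference between the drugs in the Arntl slope was -0.38 for Per3 with the mean of all probe sets and 0.62 for Dbp with both mice left out, and with 1 mouse left out it ranged from -1.08 to 0.87 for Dbp and from -0.16 to 0.93 for Per3. The correlation of Per1 with Arntl was 0.018 by rank and 0.41 with both mice left out, and ranged from -0.54 to 0.35 with 1 mouse left out.

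With the mouse number as a replicate block the slope on Arntl was -1.11 for Dbp (limma adjusted p = 0.572) and -0.51 for Per3 (limma adjusted p = 0.959), and the interaction 0.18 and -0.22. Mice of the same number correlated by -0.229 to 0.42, and 2 of 5 pairs matched best. The labels describe no pairing between the drugs, and 5 pairs are too few to show that none exists. In the main fits the numbers served as names only.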

Other observations

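Tsc22d3, a gene that glucocorticoids induce, read 8.90, 9.63, 9.39, 9.10 and 10.05 log2 in aliskiren mice 1 to 5, against 10.37, 9.05, 9.89, 10.29 and 10.02 log2 in losartan mice 1 to 5. Losartan mouse 2 again lay with the lower aliskiren mice, and aliskiren mouse 1 was lowest. Tsc22d3 also stands among the 15 clock output genes. Of the 12 glucocorticoid-induced genes, aliskiren mouse 1 was lowest in 2 and highest in 0. The median distance of that mouse from the mean of the other 9 mice was -0.005 log2 over this list, with Cdkn1a at 0.82 log2 and Tsc22d3 at -0.86 log2. Among the 9 mice without aliskiren mouse 1, Tsc22d3 had a slope on Dbp of -1.17 (unadjusted p = 0.00586 in limma), and Noct one of -1.44 (unadjusted p = 0.00418 in limma), with Nr1d1 at 1.21 (unadjusted p = 0.0093 in limma). None passed the adjustment, and 2.69% of all tested genes had an unadjusted p under 0.05 in this fit. Tsc22d3, Noct and Nr1d1 were chosen after their values were seen.

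Of the 15 renal genes known for a daily rhythm, 4 had an unadjusted p under 0.05 in the comparison of the drugs, all lower with aliskiren, against 2.53% of tested genes in that direction. Scnn1a, a subunit gene of the epithelial sodium channel, differed by -0.40 log2 (unadjusted p = 0.000472 in limma) and by -0.39 log2 without aliskiren mouse 1. Slc12a3, the thiazide-sensitive sodium chloride carrier gene, differed by -0.57 log2 (unadjusted p = 0.0023 in limma) and by -0.56 log2 without that mouse. None passed the adjustment, and both were chosen after their values were seen.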
